A study of Mus musculus with 12 samples.

Results

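The phase II transferases join glutathione, glucuronic acid or sulfate to drugs, bilirubin, bile acids and steroids, and so make them soluble enough to leave the hepatocyte. Members were chosen by gene symbol: the glutathione transferases (Gsta, Gstk, Gstm, Gsto, Gstp and Gstt genes with a number, and Mgst1 to Mgst3), the UDP-glucuronosyltransferases (Ugt1a, Ugt2a, Ugt2b and Ugt3a) and the sulfotransferases (Sult1 to Sult5). This gave 57 of the 16728 genes in the table, made up of 24 glutathione transferase, 18 glucuronosyltransferase and 15 sulfotransferase genes. All 57 matched the reference annotation by gene identifier. A filter on low counts left 47 of them for testing, and the 10 that did not pass are described with their reads below.

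RNA was sequenced from primary hepatocytes of C57BL/6 mice, and the 4 groups had 3 libraries each. They were Fxr-/- cells (KO) given FAC, KO cells given AC, wild-type cells (WT) given FAC and WT cells given AC, each compound at 100 µM for 24 h in serum-containing medium. FAC and AC appear in the labels as abbreviations without full names, and the series title names iron overload as the question. Fxr (gene Nr1h4) is the bile acid receptor; the labels do not state how the allele was made. Separate animals or cultures behind the 3 libraries are not stated either, so p-values measure only the spread between these libraries, which may be technical.

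Glutathione transferases work in the cytosol, with Gstk1 in mitochondria and peroxisomes and the Mgst proteins in membranes. Glucuronosyltransferases sit in the endoplasmic reticulum and use UDP-glucuronate; the Ugt1a genes each have their own first exon and promoter and share the remaining exons. Sulfotransferases of the cytosol take sulfate from the donor PAPS, and the nuclear receptors CAR, PXR, PPARα and FXR, with Nrf2 and the Ah receptor, are known regulators of many of these genes in liver.

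Libraries held 16464494 to 18335700 estimated reads, with reads in 14243 to 14481 genes. Nr1h4 still had reads in KO libraries, at 3.54 to 4.89 reads scaled to library size (CPM) under FAC and 6.97 to 9.35 CPM under AC, against 6.95 to 7.69 CPM in WT FAC and 12.98 to 15.6 CPM in WT AC libraries. A gene-level count does not show which exons the reads come from, so it gives no check of the deletion. The third principal component (7.4% of the variance) spread the KO libraries. KO FAC 6 and KO AC 1 lay at -27.7 and -13.5, and KO FAC 4, KO AC 2 and KO AC 3 at 22.7, 14.6 and 9.6. KO FAC 5 lay between them at -3.26. WT AC libraries lay at -12.2 to -8.41 and WT FAC libraries at 2.12 to 14.3. Summed hepatocyte markers (7 of 8 in the table) were mostly Alb and were higher with FAC in both genotypes. They lay at 28890 to 29520 CPM in KO FAC and 22640 to 24190 CPM in KO AC libraries. In WT they lay at 30930 to 32710 CPM under FAC and 23220 to 23910 CPM under AC. With FAC, 5 of 7 tested were called higher and 0 lower in KO (median log2 fold change 0.452), and 4 higher and 2 lower in WT (0.445). Of all tested genes, 15.0% and 8.7% were called higher with FAC in KO and WT. Of the 7 tested, 4 were called higher in KO under FAC and 1 lower (median log2 fold change 0.97). Under AC, 4 were higher and 2 lower (0.93). Of all tested genes, 24.6% were called higher in KO and 24.9% lower under FAC, and 21.7% and 21.2% under AC. Ttr averaged 1822 CPM in KO FAC, against 764 CPM in WT FAC.

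Markers of other liver cells also differed between genotypes. Their counts are to be read against the shares of all tested genes called in KO against WT. These were 24.6% higher and 24.9% lower under FAC, and 21.7% and 21.2% under AC. Stellate cell and fibroblast markers (7 of 8 in the table) summed to 4.51 to 6.69 CPM in KO FAC and 6.43 to 7.45 CPM in KO AC libraries, against 12.7 to 13.02 CPM in WT FAC and 15.3 to 18.5 CPM in WT AC libraries, with Col1a2 at 0 in KO FAC; 5 of 6 tested were lower in KO under each treatment (medians -3.17 and -3.89 under FAC and AC). Macrophage markers (7 of 8) summed to 727.9 to 863.7 CPM in KO FAC and 555.4 to 688.5 CPM in KO AC, against 652.7 to 704.5 CPM in WT FAC and 348.7 to 425.0 CPM in WT AC. That sum was nearly all Cd68: of 4 tested, 1 was higher and 2 lower in KO under each treatment (medians -2.42 and -2.36), and the Kupffer cell marker Clec4f was at 0 in both KO groups. Sinusoidal endothelial markers (8 of 8) summed to 31.7 to 49.7 CPM over all libraries, mostly Stab1 and Stab2, with Clec4g at 0 except in WT AC. Of 7 tested, 4 were lower and 1 higher in KO under each treatment (medians -1.79 and -1.48), and Cdh5 averaged 1.17 CPM in KO FAC, against 9.10 CPM in WT FAC. Cholangiocyte markers (8 of 8) summed to 150.0 to 166.1 CPM in KO FAC and 93.4 to 105.2 CPM in KO AC, against 343.1 to 387.0 CPM in WT FAC and 385.4 to 403.6 CPM in WT AC, with Krt7 and Cftr at 0 in KO FAC. The lower sum in KO was that of Spp1: of 5 tested, 3 were higher and 1 lower under FAC (median 0.97) and 1 higher and 1 lower under AC (0.49), and Krt19 averaged 24.6 CPM in KO FAC, against 8.19 CPM in WT FAC. The part of these cells in the results was not tested, and in bulk RNA fewer cells of a type and less RNA per cell cannot be told apart.

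Most tested transferases that changed were higher in KO cells and higher with FAC. In KO against WT under FAC, 33 of the 47 tested members (70.2%) were called at an adjusted p under 0.05 by edgeR, against 49.5% of all 12275 tested genes. Of these 33, 26 were higher in KO (55.3% of tested members, against 24.6% of all genes) and 7 lower (14.9%, against 24.9%). Under AC the KO comparison called 30 members (63.8%, against 42.9% of all genes), with 22 higher (46.8%, against 21.7%) and 8 lower (17%, against 21.2%). For 20 genes the higher call was made in both KO comparisons, which is 20 of 26 under FAC and 20 of 22 under AC; 6 of 7 and 6 of 8 lower calls were shared, and no member was called in opposite directions.

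FAC against AC called 26 members in KO cells (55.3%, against 29.6% of all tested genes), of which 25 were higher (53.2%, against 15.0%) and 1 lower (2.13%, against 14.6%). In WT cells it called 17 (36.2%, against 17.2%), 15 of them higher (31.9%, against 8.7%) and 2 lower (4.26%, against 8.55%). Higher calls in both genotypes numbered 14, which is 14 of 25 in KO and 14 of 15 in WT. The FAC comparison of KO and that of WT each share a group with each KO comparison, so their values are given side by side and not as separate evidence.

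Median log2 fold changes of the 47 tested members were 0.41 for KO against WT under FAC and 0.22 under AC, and 0.33 for FAC against AC in KO and 0.14 in WT. The same medians over all tested genes lay between -0.011 and -0.002. Without single libraries, the member median ranged from 0.059 (without WT FAC 6) to 0.207 for FAC in WT. For KO under AC it ranged from 0.14 (without KO AC 1) to 0.288. The 3 libraries of each group did not overlap for 37 members in KO against WT under FAC (78.7%, against 59.1% of all tested genes) and for 32 under AC (68.1%, against 53.0%). For FAC against AC they did not overlap for 29 members in KO (61.7%, against 38.8%) and for 21 in WT (44.7%, against 43.2%). The split of calls moved with the scaling. On log2(TPM + 1) values tested with limma, the median of all genes was -0.17 for KO against WT under FAC, -0.11 under AC, -0.15 for FAC in KO and -0.10 for FAC in WT. The member medians were 0.197, 0.087, 0.141 and 0.007 in the same order. On that scale, 23 of the 47 members were called higher and 13 lower for KO under FAC, and 17 and 9 for KO under AC. With FAC, the member calls were 10 and 6 in KO and 15 and 6 in WT. Of all 12275 genes, 1942 were called higher and 4947 lower for KO under FAC, and 1823 and 3838 under AC. With FAC, the calls over all genes were 862 and 3808 in KO and 578 and 1951 in WT. No member called by edgeR changed sign under any alternative fit.

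**Figure D1:**
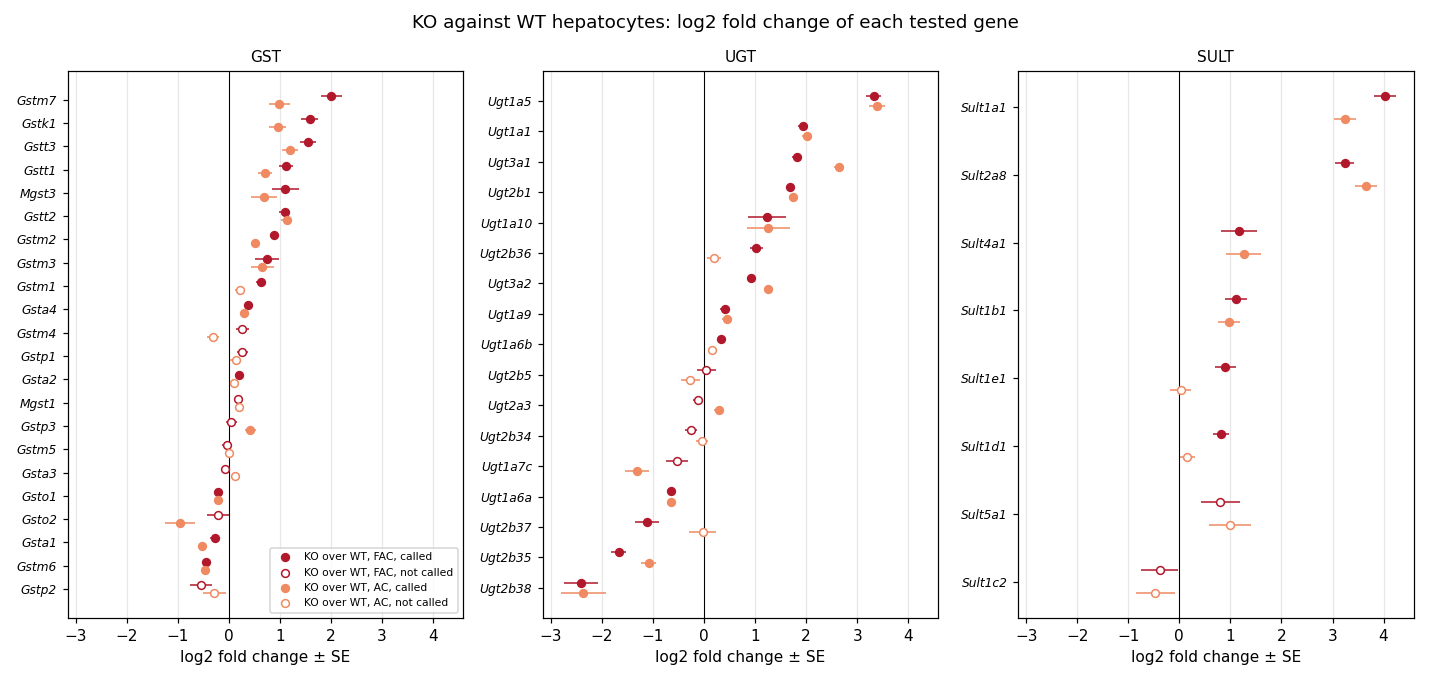
Log2 fold change of KO over WT with its SE for the 47 tested genes, in panels for glutathione transferases (GST), glucuronosyltransferases (UGT) and sulfotransferases (SULT); filled points were called and open points were not. Dark red points compare KO FAC with WT FAC and orange points KO AC with WT AC, and Sult1a1, Sult2a8 and Ugt1a5 lie furthest right, each past 3 in both comparisons.

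Levels per transcript length (FPKM) differed widely between members. Gstp1, the Pi-class transferase, averaged 3527 FPKM over the 12 libraries, rank 20 among all genes in the table, and made up 46.7% of the summed glutathione transferase FPKM. Mgst1, a membrane transferase and peroxidase, followed at 1090 FPKM, and Gsta1 and the Mu-class Gstm1 at 829.0 and 825.0 FPKM. Gstp1 was the highest member in every group, while Gsta1 (1120 FPKM) stood slightly above Mgst1 (1095 FPKM) in WT FAC and below it in the other groups.

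The summed level was 8062 ± 582 FPKM in KO FAC, 7246 ± 688 in KO AC, 7693 ± 403 in WT FAC and 7203 ± 430 in WT AC for the glutathione transferases (SD, n = 3 each). Glucuronosyltransferases summed to 505.0 ± 57.1, 518.4 ± 53.5, 497.1 ± 46.4 and 541.9 ± 13.6 FPKM in the same groups, and these means differed by less than 1 SD of the KO groups. Sulfotransferases were the scarcest class, with sums of 51.1 ± 4.55 FPKM in KO FAC, 35.5 ± 5.18 in KO AC, 20.9 ± 1.37 in WT FAC and 23.0 ± 2.23 in WT AC. Under both treatments the KO sums lay above the WT sums in every library when counted as CPM, at 75.4 to 88.7 in KO FAC and 45.7 to 63.6 in KO AC, against 29.4 to 34.3 in WT FAC and 31.6 to 36.5 in WT AC.

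**Figure D2:**
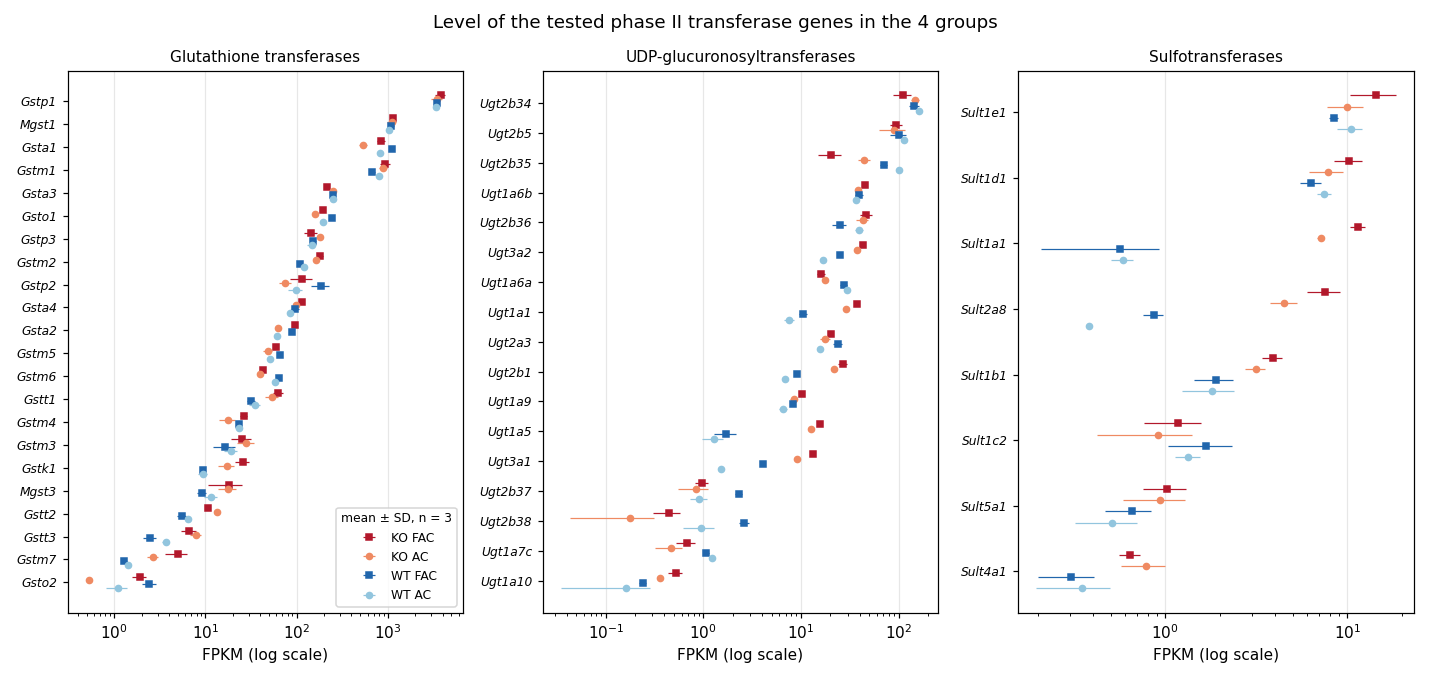
Mean FPKM with its SD (3 libraries per group, log axis) of each tested gene, ordered by its mean over all libraries within each class. Groups run from KO FAC at the top of each row to WT AC at the bottom; Gstp1 leads the glutathione transferases at 3527 FPKM, Ugt2b34 the glucuronosyltransferases at 141.2 and Sult1e1 the sulfotransferases at 10.8.

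Within the Ugt1a cluster, KO cells had more RNA of some first exons and less of others. The cluster spans chr1:88055411-88220002 (GRCm38.p6), and its genes end at or near the same base. Ugt1a1, Ugt1a5, Ugt1a9 and Ugt1a10 were called higher in KO under both treatments, and Ugt1a6a lower. Ugt1a6b was called higher under FAC only and Ugt1a7c lower under AC only. The sum over the cluster was moderately higher. The 3 promoter windows below each run from 250 bases before to 50 bases after the gene start on the plus strand. They are those of Ugt1a5 and Ugt1a1, which had the largest rise in KO, and of Ugt1a6a, the most abundant gene that was lower. They are shown since these genes share their later exons and differ in this stretch. They are RefSeq sequences of GRCm38.p6: Ugt1a1 at chr1:88211709-88212008, Ugt1a5 at chr1:88165762-88166061 and Ugt1a6a at chr1:88134559-88134858. The capitals in Ugt1a5 mark GCGTG, the core of the Ah receptor element, and the other windows hold no match to a searched motif.
Ugt1a1: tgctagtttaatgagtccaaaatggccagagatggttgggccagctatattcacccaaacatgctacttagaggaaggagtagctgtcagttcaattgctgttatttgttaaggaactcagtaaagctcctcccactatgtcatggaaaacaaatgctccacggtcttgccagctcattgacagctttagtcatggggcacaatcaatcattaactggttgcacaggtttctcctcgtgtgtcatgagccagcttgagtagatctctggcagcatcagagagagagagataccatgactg
Ugt1a5: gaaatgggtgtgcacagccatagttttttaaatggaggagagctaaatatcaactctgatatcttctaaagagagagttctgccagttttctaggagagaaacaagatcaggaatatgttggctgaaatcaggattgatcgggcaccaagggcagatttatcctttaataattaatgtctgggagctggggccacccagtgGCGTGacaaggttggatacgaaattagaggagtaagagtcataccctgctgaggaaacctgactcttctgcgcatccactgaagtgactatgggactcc
Ugt1a6a: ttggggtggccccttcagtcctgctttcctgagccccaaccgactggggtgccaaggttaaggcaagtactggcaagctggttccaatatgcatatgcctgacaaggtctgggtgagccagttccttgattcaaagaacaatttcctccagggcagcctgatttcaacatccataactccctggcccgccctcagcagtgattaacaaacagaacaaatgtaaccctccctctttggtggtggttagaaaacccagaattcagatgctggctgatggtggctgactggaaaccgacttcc

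In global alignments, 55.7% of the 300 bases were identical between Ugt1a1 and Ugt1a5, 55.3% between Ugt1a1 and Ugt1a6a, and 52.3% between Ugt1a5 and Ugt1a6a. The motifs searched on both strands in the windows of 49 members were AGGTCA, the hexamer bound by many nuclear receptors, TGACNNNGC, the core of the antioxidant response element, and GCGTG, named above. AGGTCA was in a window of 12 members, TGACNNNGC of 4 and GCGTG of 11. The HNF1 element was searched as well and was in a window of 0 of the 49 members and in 0.14% of all windows. Among 32851 promoter windows of all genes the first 3 were in 16.3%, 12.4% and 32.4%. These shares count single windows. The member counts take a gene if any of its windows matched, with 60 windows for the 49 members, so the units differ. A match is a description of the letters, and its absence says nothing about the factor.

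Ugt1a1 is the enzyme that conjugates bilirubin. It had 124, 119 and 126 CPM in the KO FAC libraries and 83.8, 93.8 and 90.9 CPM in KO AC, against 31.3, 35.3 and 29.5 CPM in WT FAC and 22.4, 24.8 and 19.4 CPM in WT AC. All 6 KO libraries lay above all 6 WT libraries, and in each genotype the FAC libraries lay above the AC libraries. The log2 fold change of KO over WT was 1.94 ± 0.09 (SE) under FAC (adjusted p = 1.51e-09, edgeR) and 2.01 ± 0.09 under AC (adjusted p = 1.59e-09). Ugt1a5 had 49.8, 51.3 and 53.7 CPM in KO FAC and 38.8, 39.0 and 39.5 CPM in KO AC, against 6.16, 5.59 and 3.71 CPM in WT FAC and 4.64, 3.02 and 3.51 CPM in WT AC. Its groups also separated fully by genotype, with log2 fold changes of 3.32 ± 0.15 under FAC (adjusted p = 1.13e-09) and 3.39 ± 0.16 under AC (adjusted p = 1.59e-09).

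Ugt1a6a, an enzyme of planar phenols, ran the other way. It had 50.6, 55.4 and 58.3 CPM in KO FAC and 55.8, 55.1 and 58.4 CPM in KO AC, against 81.9, 80.5 and 93.6 CPM in WT FAC and 84.4, 91.4 and 88.3 CPM in WT AC. Every KO library lay below every WT library and FAC made no separation; the log2 fold change was -0.64 ± 0.08 under FAC (adjusted p = 1.62e-05) and -0.64 ± 0.08 under AC (adjusted p = 2.16e-05). Ugt1a7c was lower in KO under AC by a log2 fold change of -1.31 ± 0.23 (adjusted p = 0.000545), and its value under FAC was -0.53 (adjusted p = 0.0619), which became a call without KO FAC 4 or KO AC 1 (adjusted p = 0.0186 and 0.0316). Ugt1a9 was higher in KO at 0.41 under FAC and 0.45 under AC, Ugt1a6b was called at 0.34 under FAC and not called under AC (0.15, adjusted p = 0.125), and the scarce Ugt1a10 was called at 1.23 and 1.26. The call of Ugt1a10 under FAC was lost without KO FAC 5 (adjusted p = 0.0569) and under AC without any KO AC library, WT AC 1 or WT AC 3 (adjusted p 0.0522 to 0.0773).

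The make-up of the cluster shifted accordingly. Ugt1a1 took 33.0% of its reads in KO FAC and 30.1% in KO AC, against 13.6% in WT FAC and 10.4% in WT AC, while Ugt1a6a took 14.7% and 19.0% in KO, against 36.2% and 41.4% in WT. Because 52.1% to 79.8% of the 50-base stretches of each Ugt1a transcript set recur in other genes, mostly of the cluster, the split between them is an estimate made by the authors' software. The sum over the cluster does not depend on it: 367, 371 and 380 CPM in KO FAC and 298, 297 and 298 CPM in KO AC, against 232, 228 and 247 CPM in WT FAC and 203, 222 and 213 CPM in WT AC. The sum was higher in KO at a log2 fold change of 0.66 ± 0.06 under FAC (adjusted p = 5.27e-07) and 0.48 ± 0.06 under AC (adjusted p = 1.44e-05), with no overlap between genotypes.

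**Figure D3:**
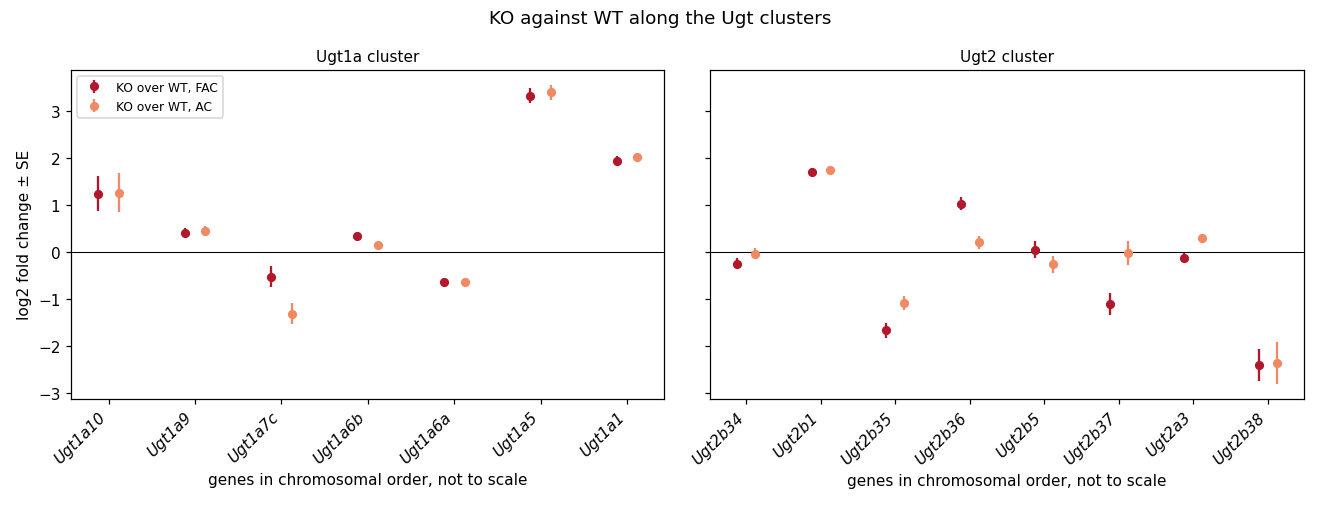
Log2 fold change of KO over WT with its SE for the tested Ugt1a genes (left) and Ugt2a and Ugt2b genes (right) in chromosomal order. Neighbours differ in sign: Ugt1a5 at 3.32 stands beside Ugt1a6a at -0.64 under FAC, and Ugt2b1 at 1.69 stands between Ugt2b34 and Ugt2b35, with Ugt2b35 at -1.67.

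The Ugt2b cluster on chromosome 5, whose enzymes act on steroids, bile acids and drugs, held changes in both directions, and its sum was not called. Ugt2b1 was higher in KO, Ugt2b38 and Ugt2b35 were lower, and Ugt2b36 and Ugt2b37 were called under FAC and not under AC, in opposite directions. The promoters of Ugt2b38, Ugt2b37, Ugt2b36 and Ugt2b5 are printed because they share sequence while the calls for their RNA differed. They lie on the minus strand of GRCm38.p6 (RefSeq) at chr5:87424154-87424453 for Ugt2b38, chr5:87254739-87255038 for Ugt2b37, chr5:87092506-87092805 for Ugt2b36 and chr5:87140291-87140590 for Ugt2b5, each with 250 bases before and 50 after the gene start. Capitals mark the AGGTCA hexamer.
Ugt2b38: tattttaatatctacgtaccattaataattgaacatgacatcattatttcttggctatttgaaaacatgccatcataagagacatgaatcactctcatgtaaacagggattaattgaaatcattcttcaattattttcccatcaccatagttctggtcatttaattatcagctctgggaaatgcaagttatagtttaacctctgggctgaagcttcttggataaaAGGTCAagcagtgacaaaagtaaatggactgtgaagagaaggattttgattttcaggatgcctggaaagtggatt
Ugt2b37: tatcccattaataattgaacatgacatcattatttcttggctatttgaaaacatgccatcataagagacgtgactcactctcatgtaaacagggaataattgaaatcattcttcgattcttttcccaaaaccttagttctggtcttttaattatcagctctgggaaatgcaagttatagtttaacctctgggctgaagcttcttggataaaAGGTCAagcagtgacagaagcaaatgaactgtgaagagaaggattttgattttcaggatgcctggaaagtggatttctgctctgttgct
Ugt2b36: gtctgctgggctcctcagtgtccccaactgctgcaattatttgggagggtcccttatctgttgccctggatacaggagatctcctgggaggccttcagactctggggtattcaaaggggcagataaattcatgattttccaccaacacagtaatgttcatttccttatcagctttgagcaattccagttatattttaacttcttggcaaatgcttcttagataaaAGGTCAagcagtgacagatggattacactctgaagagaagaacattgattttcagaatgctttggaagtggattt
Ugt2b5: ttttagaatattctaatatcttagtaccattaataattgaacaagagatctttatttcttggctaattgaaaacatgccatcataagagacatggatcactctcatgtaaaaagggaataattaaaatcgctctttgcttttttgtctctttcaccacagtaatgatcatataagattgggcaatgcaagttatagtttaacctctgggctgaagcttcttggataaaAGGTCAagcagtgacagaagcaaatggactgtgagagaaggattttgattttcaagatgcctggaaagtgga

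The 4 windows share the unbroken 22-base run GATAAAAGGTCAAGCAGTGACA, in which the hexamer begins 25 bases before the gene start in Ugt2b38 and Ugt2b36, 39 bases in Ugt2b37 and 22 bases in Ugt2b5. The windows of Ugt2b37 and Ugt2b38 were 91.0% identical, those of Ugt2b38 and Ugt2b5 87.0% and those of Ugt2b37 and Ugt2b5 82.3%, while Ugt2b36 was 65.7% to 67.3% identical to the others.

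Ugt2b38 had 1.15, 0.717 and 0.642 CPM in KO FAC and 0.582, 0.169 and 0.199 CPM in KO AC, against 4.24, 5.08 and 4.13 CPM in WT FAC and 1.36, 2.27 and 1.17 CPM in WT AC. At this low level every KO library lay below every WT library of the same treatment, and in each genotype FAC libraries lay above AC libraries. Its log2 fold change of KO over WT was -2.41 ± 0.34 under FAC (adjusted p = 6.1e-05) and -2.37 ± 0.44 under AC (adjusted p = 0.000812). Ugt2b37 had 1.95, 1.504 and 1.98 CPM in KO FAC and 2.01, 1.44 and 0.989 CPM in KO AC, against 4.12, 4.16 and 3.56 CPM in WT FAC and 1.69, 1.19 and 1.64 CPM in WT AC. Only its WT FAC libraries stood apart, above the rest. KO over WT was -1.12 ± 0.24 under FAC (adjusted p = 0.00154) and -0.03 ± 0.26 under AC (adjusted p = 0.944).

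Ugt2b36 had 76.2, 90.5 and 96.5 CPM in KO FAC and 88.6, 68.5 and 70.3 CPM in KO AC, against 39.2, 38.8 and 51.3 CPM in WT FAC and 62.3, 73.9 and 61.8 CPM in WT AC. Its WT FAC libraries were the lowest of all, and the KO and WT libraries under AC overlapped. KO over WT was 1.03 ± 0.14 under FAC (adjusted p = 4.78e-05) and 0.20 ± 0.13 under AC (adjusted p = 0.245). Ugt2b5, at 155 to 195 CPM in KO FAC, 128 to 212 CPM in KO AC, 154 to 211 CPM in WT FAC and 186 to 196 CPM in WT AC, overlapped between all groups and was not called in any comparison. KO AC 1 was its highest KO library, and without it Ugt2b5 was called lower in KO under AC (-0.53, adjusted p = 0.00737) and higher with FAC in KO (0.44, adjusted p = 0.0241). Transcripts of Ugt2b38 and Ugt2b5 share 37.4% and 41.7% of their 50-base stretches with other genes, chiefly with each other. Ugt2b37 shares 18.3%, chiefly with Ugt2b5 (15.2%), and Ugt2b36 shares 0.285%. Reads of the abundant Ugt2b5 could therefore be assigned to the scarce Ugt2b38 and Ugt2b37.

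Ugt2b1 and Ugt2b35 carry little shared sequence (0% and 0.303%). Ugt2b1 had 63.5, 68.9 and 75.2 CPM in KO FAC and 57.2, 51.2 and 49.3 CPM in KO AC, against 20.5, 21.9 and 22.1 CPM in WT FAC and 15.6, 15.8 and 15.8 CPM in WT AC. The 4 groups did not overlap, and KO over WT was 1.69 ± 0.09 under FAC (adjusted p = 2.65e-09) and 1.74 ± 0.09 under AC (adjusted p = 2.72e-09). Ugt2b35 had 53.4, 68.7 and 86.8 CPM in KO FAC and 169, 126 and 140 CPM in KO AC, against 236, 203 and 227 CPM in WT FAC and 329, 299 and 295 CPM in WT AC. It was the member that was lower both in KO and with FAC, again with 4 groups that did not overlap; KO over WT was -1.67 ± 0.15 under FAC (adjusted p = 2.9e-06) and -1.09 ± 0.15 under AC (adjusted p = 0.000116). It held 3.97% of the summed glucuronosyltransferase FPKM in KO FAC, against 14.2% in WT FAC, and 18.6% in WT AC. The most abundant gene of the class, Ugt2b34, was not called (-0.25, adjusted p = 0.101 under FAC and -0.04, adjusted p = 0.821 under AC), but without KO FAC 6 it was called lower in KO under FAC (-0.41, adjusted p = 0.00613). The summed Ugt2b reads were not called either, at -0.22 ± 0.12 under FAC (adjusted p = 0.137) and -0.25 ± 0.12 under AC (adjusted p = 0.114).

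Ugt3a1 and Ugt3a2, neighbours on chromosome 15, were both higher in KO; the human enzymes of this family use sugars other than glucuronic acid. Ugt3a1 had 28.4, 31.3 and 28.5 CPM in KO FAC and 18.9, 19.4 and 18.7 CPM in KO AC, against 7.96, 8.76 and 8.20 CPM in WT FAC and 2.94, 3.35 and 2.79 CPM in WT AC. The libraries formed 4 tight, separate levels, and KO over WT was 1.82 ± 0.09 under FAC (adjusted p = 2.69e-09) and 2.65 ± 0.10 under AC (adjusted p = 2.99e-10). Ugt3a2 had group means of 95.5 CPM in KO FAC and 78.0 CPM in KO AC, against 50.4 CPM in WT FAC and 32.9 CPM in WT AC, and log2 fold changes of 0.92 ± 0.07 and 1.25 ± 0.08 (adjusted p = 4.07e-07 and 2.68e-08). Ugt2a3 was called higher in KO under AC at 0.28, a call lost without KO AC 2 or any 1 of the WT AC libraries (adjusted p 0.0551 to 0.137), and its value under FAC was -0.13 (adjusted p = 0.274).

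Among the sulfotransferases, every called member was higher in KO: 6 of 8 tested under FAC (75.0%, against 24.6% of all genes called higher) and 4 of 8 under AC (50%, against 21.7%). Sult1a1, the phenol sulfotransferase, had 13.8, 13.4 and 15.1 CPM in KO FAC and 8.06, 8.57 and 7.83 CPM in KO AC, against 0.814, 0.567 and 1.25 CPM in WT FAC and 1.10, 0.782 and 0.724 CPM in WT AC. All KO libraries were several times above all WT libraries. Its log2 fold change of 4.02 ± 0.21 under FAC (adjusted p = 4.47e-09) was the largest of any tested member, and that under AC was 3.25 ± 0.22 (adjusted p = 7.25e-08). Sult1a1 made up 22.5% of the summed sulfotransferase FPKM in KO FAC, against 2.66% in WT FAC.

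Sult2a8, a bile acid sulfotransferase of mouse liver, had 15.2, 13.3 and 19.3 CPM in KO FAC and 10.8, 7.92 and 8.32 CPM in KO AC, against 1.69, 1.86 and 1.49 CPM in WT FAC and 0.709, 0.703 and 0.711 CPM in WT AC. Its 4 groups did not overlap, and KO over WT was 3.24 ± 0.19 under FAC (adjusted p = 1.14e-08) and 3.66 ± 0.22 under AC (adjusted p = 2.02e-08). Little of its transcript recurs elsewhere (1.72% of 50-base stretches). Sult1b1, which sulfates thyroid hormones, was higher at 1.12 ± 0.21 and 0.97 ± 0.22, and Sult4a1, a family member found mainly in brain, at 1.18 ± 0.35 and 1.26 ± 0.34 from levels of 0.487 to 2.24 CPM. The call of Sult4a1 under FAC was lost without WT FAC 4 (adjusted p = 0.0592).

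Sult1e1, the estrogen sulfotransferase, and Sult1d1, which acts on catecholamines in mouse, were called under FAC and not under AC. Sult1e1 had 23.2, 15.2 and 13.6 CPM in KO FAC and 12.6, 13.01 and 8.26 CPM in KO AC, against 9.43, 9.64 and 8.72 CPM in WT FAC and 12.7, 9.63 and 11.0 CPM in WT AC. KO FAC was the only group that stood above the others. KO over WT was 0.90 ± 0.21 under FAC (adjusted p = 0.00294) and 0.03 ± 0.21 under AC (adjusted p = 0.926). For Sult1d1 the values were 0.82 ± 0.16 (adjusted p = 0.000788) and 0.16 ± 0.16 (adjusted p = 0.442). The difference between the 2 treatments was not called for either gene (0.88 and 0.66, adjusted p = 0.124 for each), but that of Sult1d1 was called without KO AC 1 (0.85, adjusted p = 0.0284).

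**Figure D4:**
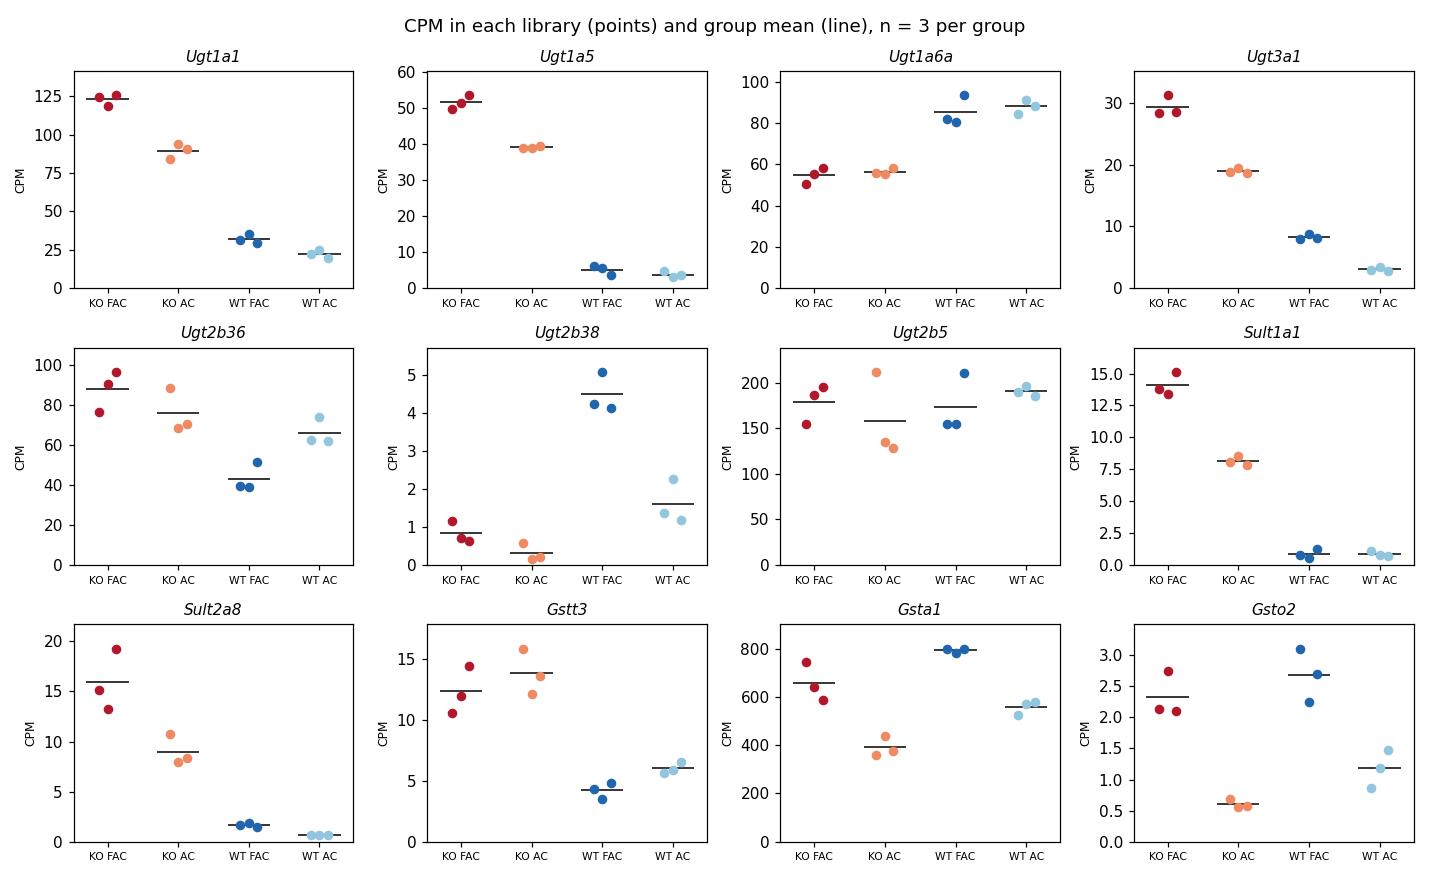
CPM of 12 members in each library, with points for libraries and a line for the mean of the 3 libraries in a group; every axis starts at 0. Ugt1a1, Ugt1a5, Ugt3a1, Sult1a1 and Sult2a8 separate KO (left) from WT (right), Ugt2b38 and Ugt1a6a do so in the other direction, and Ugt2b5 overlaps throughout.

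Of 22 tested glutathione transferases, 11 were higher in KO (50%, against 24.6% of all genes) and 3 lower (13.6%, against 24.9%) under FAC. Under AC 10 were higher (45.5%, against 21.7%) and 4 lower (18.2%, against 21.2%). All 3 tested Theta-class genes, whose enzymes act on small halogenated compounds, were higher in both. Gstt3 had 10.6, 11.97 and 14.4 CPM in KO FAC and 15.8, 12.1 and 13.6 CPM in KO AC, against 4.29, 3.50 and 4.82 CPM in WT FAC and 5.62, 5.84 and 6.57 CPM in WT AC. KO libraries lay above WT libraries throughout, at 1.55 ± 0.16 under FAC (adjusted p = 4.52e-06) and 1.20 ± 0.15 under AC (adjusted p = 4.11e-05). Gstt1 was higher at 1.12 and 0.71 and Gstt2 at 1.09 and 1.14. This cluster (chr10:75774117-75837419) lies on the chromosome of the targeted gene Nr1h4, with a gap of 13.62 Mb between them, and whether sequence carried along with the altered allele bears on these genes was not tested.

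Gstk1, the mitochondrial and peroxisomal Kappa-class enzyme, had 19.1, 20.5 and 25.7 CPM in KO FAC and 16.1, 14.6 and 10.5 CPM in KO AC, against 7.23, 7.06 and 7.57 CPM in WT FAC and 6.05, 7.41 and 7.71 CPM in WT AC. Its log2 fold change was 1.58 ± 0.16 under FAC (adjusted p = 4e-06) and 0.96 ± 0.16 under AC (adjusted p = 0.00046), with no overlap of genotypes. Gstm7, a scarce Mu-class gene, had 6.77, 4.32 and 6.52 CPM in KO FAC and 2.70, 3.49 and 3.14 CPM in KO AC, against 1.35, 1.48 and 1.55 CPM in WT FAC and 1.53, 1.62 and 1.53 CPM in WT AC. The fold change was 2.004 ± 0.21 under FAC (adjusted p = 4.16e-06) and 0.99 ± 0.21 under AC (adjusted p = 0.00223). The abundant Gstm1 was called under FAC at 0.62 ± 0.10 and not under AC (0.22, adjusted p = 0.0826, and 0.0483 without WT AC 2), and Gstm2 in both at 0.88 and 0.51. The sum of Gstm1, Gstm2, Gstm3 and Gstm6, whose transcripts share stretches with each other or with pseudogenes, was called under FAC at 0.60 ± 0.09 (adjusted p = 0.000118) and not under AC (0.23, adjusted p = 0.0514).

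Gsta1, an Alpha-class enzyme known as a target of Nrf2 in mouse, led the genes that were lower in KO by abundance. It had 743, 640 and 585 CPM in KO FAC and 361, 436 and 376 CPM in KO AC, against 798, 782 and 800 CPM in WT FAC and 527, 570 and 580 CPM in WT AC. The log2 fold change was -0.27 ± 0.09 under FAC (adjusted p = 0.0186) and -0.52 ± 0.09 under AC (adjusted p = 0.000426), and the groups did not overlap within a treatment. The call under FAC was lost without KO FAC 5 or KO FAC 6 (adjusted p = 0.0611 and 0.0797). Of the Gsta1 transcript, 90.5% of 50-base stretches recur in other genes, chiefly in Gm3776 (75.7%), which was not part of any sum. The sum of Gsta1 and Gsta2 was -0.23 ± 0.08 and -0.46 ± 0.08 (adjusted p = 0.0299 and 0.000576, edgeR). That sum was mostly Gsta1 reads, so it cannot check how reads were split between Gsta1 and Gm3776.

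Gstm6 was lower in KO at -0.45 ± 0.07 and -0.46 ± 0.07. Gsto1, an Omega-class enzyme with thioltransferase activity, was lower at -0.20 ± 0.06 in both; that call was lost under FAC without WT FAC 5 (adjusted p = 0.0514) and under AC without KO AC 3, WT AC 2 or WT AC 3 (0.0601 to 0.0682). Gsto2, which reduces dehydroascorbate, was lower under AC at -0.95 ± 0.29 (adjusted p = 0.0185), a call lost without KO AC 2 or WT AC 3 (0.0609 and 0.0813), and had -0.21 under FAC (adjusted p = 0.453). Mgst3, a membrane enzyme related to leukotriene C4 synthase, was higher at 1.11 ± 0.26 under FAC (adjusted p = 0.00352) and 0.70 ± 0.26 under AC, where the call was lost without KO FAC 5, KO AC 1, KO AC 3, WT FAC 4, WT FAC 5 or any WT AC library (0.0544 to 0.152). Gsta4, which conjugates the lipid peroxidation product 4-hydroxynonenal, was higher at 0.38 and 0.29, the AC call being lost without WT AC 1 (adjusted p = 0.05). The class leaders Gstp1 and Mgst1 did not pass the test, at 0.26 and 0.18 under FAC and 0.13 and 0.19 under AC (adjusted p 0.055 to 0.335). Gstp1 was called under FAC without KO FAC 4, KO AC 1 or WT AC 2 (adjusted p 0.0165 to 0.0498), and Mgst1 under FAC without KO AC 1 or KO AC 3 (0.0361 and 0.0268) and under AC without KO AC 3 (0.00604).

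Genes of all 3 classes rose with FAC in both genotypes. Gsta1 was higher with FAC at 0.75 ± 0.09 in KO and 0.51 ± 0.09 in WT (adjusted p = 6.63e-05 and 0.00166), and Gsta2 at 0.67 ± 0.07 and 0.58 ± 0.07 (adjusted p = 4.61e-05 and 0.000189). Gsto2 had 2.13, 2.75 and 2.10 CPM in KO FAC against 0.688, 0.553 and 0.582 CPM in KO AC, and 3.10, 2.25 and 2.70 CPM in WT FAC against 0.873, 1.19 and 1.48 CPM in WT AC. FAC libraries lay above AC libraries in each genotype, and the log2 fold change was 1.92 ± 0.27 in KO (adjusted p = 0.000247) and 1.18 ± 0.24 in WT (adjusted p = 0.0042). Gsto1 was higher at 0.35 in both. Ugt1a1, Ugt2b1 and Ugt3a2 were higher with FAC as well, at 0.46, 0.40 and 0.29 in KO and 0.53, 0.45 and 0.62 in WT, and Sult2a8 at 0.82 ± 0.15 and 1.24 ± 0.26 (adjusted p = 0.00173 and 0.00592). The summed Ugt1a reads were called higher with FAC in KO (0.32, adjusted p = 0.000886, edgeR) and not called in WT (0.15, adjusted p = 0.0813).

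Ugt2b38 was higher with FAC at 1.44 ± 0.49 in KO and 1.49 ± 0.30 in WT (adjusted p = 0.0411 and 0.00427), and its KO call was lost without KO FAC 4 or 5, KO AC 2 or 3, or any WT FAC library (adjusted p 0.0516 to 0.147). Gstp2, which shares 54.3% of its 50-base stretches with other genes, was called at 0.70 in KO and 0.96 in WT. The KO call was lost without KO FAC 5, KO FAC 6, KO AC 2, KO AC 3 or WT AC 3 (0.0532 to 0.14) and the WT call without WT AC 1 (0.057), and the summed Gstp reads were not called (0.20 and 0.11, adjusted p = 0.183 and 0.524). Ugt2b35 was the 1 gene lower with FAC in both genotypes, at -1.06 ± 0.15 in KO and -0.47 ± 0.15 in WT (adjusted p = 0.000406 and 0.0452). Its WT call was lost without KO FAC 5, KO AC 3 or any WT library (0.0623 to 0.153).

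Genes that FAC raised past the threshold in KO and not in WT included Gstm7 (0.92 in KO; -0.10, adjusted p = 0.825 in WT), Gstk1 (0.67; 0.05, adjusted p = 0.892), Gstm4 (0.64; 0.06, adjusted p = 0.781) and Sult1a1 (0.79; 0.02, adjusted p = 0.981). None of these was called in the test of the difference between the genotypes, where their adjusted p lay between 0.0866 and 0.223; the difference was called for Gstm7 without KO FAC 5 (adjusted p = 0.0437) and for Gstm4 without KO AC 1 (adjusted p = 0.0132). Sult1d1 at 0.47 and Sult1e1 at 0.62 were called in KO, but the first call was lost without KO FAC 5, KO FAC 6, KO AC 2, KO AC 3, WT FAC 4 or WT AC 3 (0.0517 to 0.157) and the second without KO FAC 4, KO AC 3, WT FAC 4, WT FAC 5 or WT AC 3 (0.0516 to 0.149). The call of Ugt1a5 in KO (0.40) was lost without KO FAC 5, KO FAC 6 or any KO AC library (0.0508 to 0.0852). In WT, FAC raised Ugt2b37 at 1.39 ± 0.24 (adjusted p = 0.00155; 0.29, adjusted p = 0.422 in KO) and Ugt2a3 at 0.67 ± 0.09 (adjusted p = 0.00035). Ugt2a3 was also called in KO at 0.26 (adjusted p = 0.0498), but that call was lost in 17 of 22 alternative fits, among them those without any KO FAC library, KO AC 1, KO AC 3, WT FAC 5 or any WT AC library (0.0597 to 0.144).

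**Figure D5:**
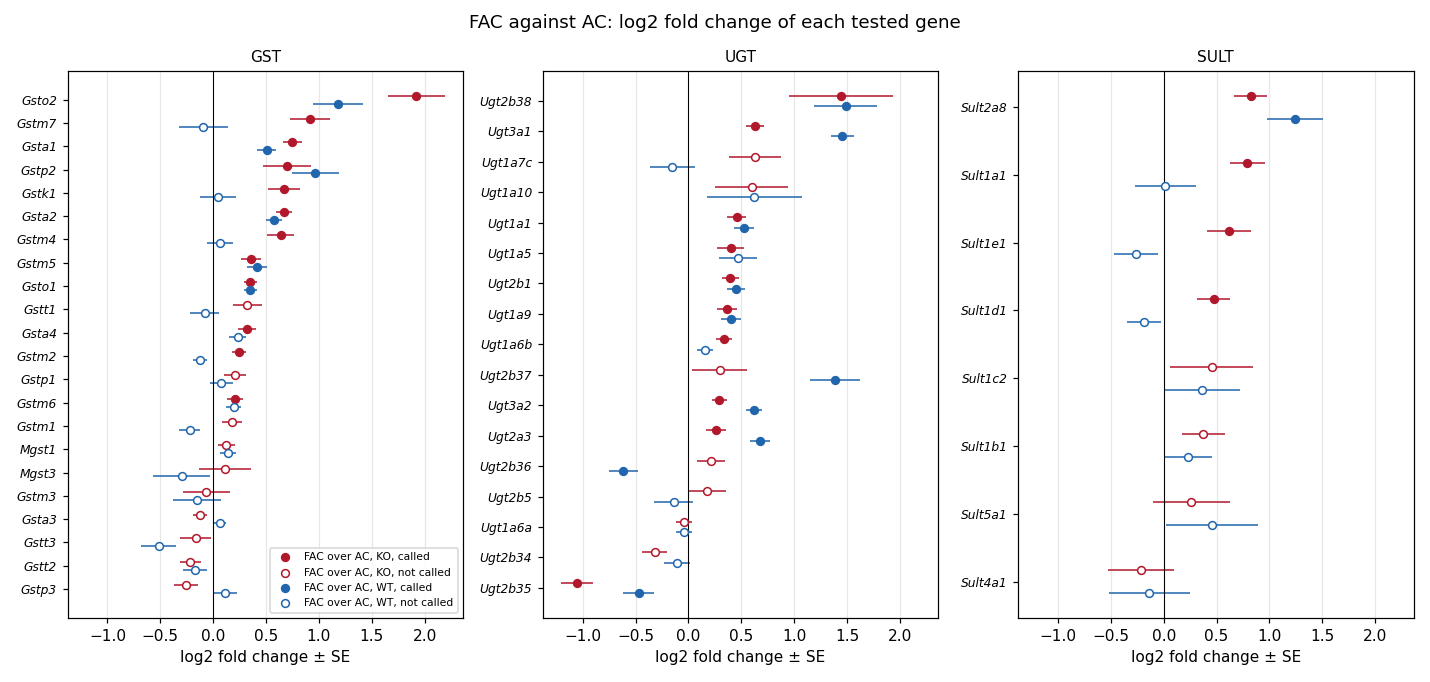
Log2 fold change of FAC over AC with its SE for the 47 tested genes, in dark red for KO and blue for WT; filled points were called and open points were not. Most called points lie right of 0, Gsto2 in KO furthest at 1.92, and Ugt2b35 lies left of 0 in both genotypes.

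The effect of FAC differed between the genotypes for 2 members (4.26%, against 3.15% of all tested genes), 1 in each direction (2.13% each, against 1.87% of all genes with a positive and 1.28% with a negative difference). Ugt2b36 had a log2 fold change with FAC of 0.21 ± 0.13 in KO (adjusted p = 0.249) and -0.62 ± 0.14 in WT (adjusted p = 0.00786), a difference of 0.83 ± 0.19 (adjusted p = 0.0366, edgeR). That call was lost in 10 of 22 alternative fits, among them those without KO FAC 5 or 6, KO AC 2 or 3, WT FAC 4 or 5, or WT AC 2 or 3 (adjusted p 0.0653 to 0.0992). Ugt3a1 rose with FAC in both, at 0.63 ± 0.09 in KO (adjusted p = 0.0002) and 1.45 ± 0.11 in WT (adjusted p = 3.9e-06), a difference of -0.82 ± 0.14 (adjusted p = 0.00944) that was called in all 22 fits. KO AC 1 and KO FAC 4 lay on opposite sides of the third principal component. Without them, 11 of 48 tested members were called in the difference, against 1918 of all 12394 tested genes. Without KO AC 1 and KO FAC 6, 5 of 47 members were called, against 546 of 12347 genes.

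The 10 members that were not tested had between 1 and 60 reads in all 12 libraries together. Mgst2, a membrane enzyme that can make leukotriene C4, had the most: 33 reads in the 3 KO FAC libraries, 4 in KO AC, 15 in WT FAC and 8 in WT AC. Sult2b1 had 29 reads in all, and the other Sult2a genes (Sult2a1, Sult2a2, Sult2a5, Sult2a6 and Sult2a7) 1 to 14. Gstt4 had 4 reads, Ugt1a2 7.7 estimated reads and Sult3a1 1. These genes were near the limit of detection at this depth and are not compared.

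Genes that supply the cosubstrates, export the conjugates or regulate the pathway were followed in separate lists. The lists were chosen with earlier results known, and their counts describe them. Counts in each list are to be read against the share of all tested genes called in KO against WT, which was 49.5% under FAC (24.6% higher, 24.9% lower) and 42.9% under AC (21.7% higher, 21.2% lower). Of 5 genes of UDP-glucuronate handling, 1 was higher in KO under FAC and 1 higher and 1 lower under AC. Ugp2, which makes UDP-glucose, had 592 CPM in KO FAC and 594 CPM in KO AC, against 277 CPM in WT FAC and 298 CPM in WT AC (log2 fold change 1.10 and 0.998, adjusted p = 2.25e-07 and 7.57e-07). With FAC, 1 of the 5 was higher and 1 lower in KO, and 1 was lower in WT. Of all tested genes, FAC called 15.0% higher and 14.6% lower in KO, and 8.7% and 8.55% in WT. Slc35d1, a carrier of UDP-glucuronate into the endoplasmic reticulum, was lower at -0.84 in KO and -1.18 in WT (adjusted p = 0.00586 and 0.00134, edgeR). Ugdh was higher with FAC in KO, at 832 CPM in KO FAC against 600 CPM in KO AC. That call was lost in 2 of 22 alternative fits.

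Of 8 tested genes of sulfate and PAPS supply, 3 were higher and 2 lower in KO under FAC, and 2 were higher under AC. Slc26a1, a sulfate transporter, was higher in KO under AC at 1.21 and was lower with FAC in KO at -1.18. Of 7 tested genes of glutathione supply, 2 were lower in KO under FAC, and 4 were lower and 2 higher under AC. Gclc, the catalytic subunit of the rate-limiting enzyme of glutathione synthesis, averaged 285 CPM in KO FAC and 702 CPM in KO AC, against 910 CPM in WT FAC and 1421 CPM in WT AC. It was lower in KO at -1.67 and -1.02 and with FAC at -1.30 in KO and -0.64 in WT. Slc7a11, the cystine importer, was lower in KO at -1.44 and -1.52. With FAC, 2 of the 7 were called higher and 3 lower in each genotype. Gclm of the same list was called higher with FAC in KO, at 440 CPM in KO FAC against 323 CPM in KO AC.

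Among other conjugating enzymes, 5 of 12 tested were higher and 1 lower in KO under FAC, and 4 higher and 1 lower under AC. Inmt, an indole methyltransferase, led at 3.88 and 3.43, followed by Nnmt, a nicotinamide methyltransferase, at 1.24 and 0.97. Of 8 conjugate exporters 3 were higher and 3 lower in KO under FAC, and 3 higher and 2 lower under AC. Abcc4 and Abcc2 were lower at -2.16 and -1.39 under FAC and -2.57 and -1.12 under AC, whereas Abcc6 was higher at 1.53 and 1.45.

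Of 15 tested receptors and regulators, 2 were higher and 1 lower in KO under FAC and 3 higher and 1 lower under AC. In KO against WT this was a smaller share than of all genes. With FAC, 6 of the 15 were lower in KO and 4 in WT, and 0 were higher. These were larger shares than the 14.6% and 8.55% of all tested genes called lower with FAC. Nr1i3 (CAR) averaged 1.39 CPM in KO FAC and 0.993 CPM in KO AC, against 0.132 CPM in WT FAC and 0.145 CPM in WT AC, a log2 fold change of 3.34 and 2.71 at a low level (adjusted p = 9.61e-05 and 0.000793). Nfe2l2 (Nrf2) was lower with FAC at -0.83 in KO. It was also called lower with FAC in WT, at 192 CPM in WT FAC against 242 CPM in WT AC. That WT call was lost without any 1 of the WT libraries (adjusted p 0.0708 to 0.127, edgeR). In KO against WT, Nfe2l2 was called lower under FAC, at 130 CPM in KO FAC against 192 CPM in WT FAC. Nr1i2 (PXR) was not called in KO against WT (0.20 and 0.04). Of 13 tested marker targets of these receptors, 7 were higher and 4 lower in KO under FAC, and 6 higher and 2 lower under AC. Cyp2c29, Cyp3a11 and Cyp2b10, known targets of CAR and PXR, were higher in KO at 3.37, 2.76 and 2.60 under FAC and at 3.28, 2.84 and 3.30 under AC, while Cyp3a13 of the same list was lower at -0.62 and -0.71. Cyp2c29, Cyp3a11 and Cyp2b10 were also higher with FAC, at 1.10, 0.67 and 1.08 in KO and 1.01, 0.75 and 1.78 in WT. Of the targets of Nrf2, Nqo1 was lower in KO at -0.98 and -0.89, while Hmox1 was higher under FAC at 0.93 (adjusted p = 0.0012) and not called under AC (-0.16, adjusted p = 0.485). Srxn1 and Txnrd1 of the same list were called lower in KO under FAC, at 972 and 513 CPM in KO FAC, against 1137 and 714 CPM in WT FAC. The Srxn1 call was lost without KO FAC 5, KO FAC 6, WT FAC 4 or WT FAC 5 (adjusted p 0.0533 to 0.0906, edgeR). Both were also called lower with FAC in KO, the Txnrd1 call being lost without KO AC 3 (adjusted p = 0.0513). Of the targets of the Ah receptor, Cyp1a2 was higher in KO at 2.13 and 1.64 and Cyp1a1 was not called (0.28 and 0.30).

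Several of these transferases are known to differ between male and female mouse liver, and the labels do not give the sex of the animals. Reads of Ddx3y, Uty, Kdm5d and Eif2s3y on the Y chromosome were found in every library. Ddx3y had 24.2 to 26.9 CPM in KO FAC and 31.6 to 37.8 CPM in KO AC, against 50.6 to 77.7 CPM in WT FAC and 44.95 to 88.0 CPM in WT AC. Ddx3y, Uty and Kdm5d were lower in KO in both tests (log2 fold change -1.25, -1.18 and -0.99 under FAC), with the AC call of Ddx3y lost without KO AC 1 (adjusted p = 0.0582), while Eif2s3y was 53.5 to 61.8 CPM in KO FAC and 50.5 to 66.5 CPM in WT FAC. Under AC, Eif2s3y was called higher in KO, at 69.0 to 75.1 CPM in KO AC against 52.2 to 62.5 CPM in WT AC (0.33, adjusted p = 0.0196), a call lost without KO AC 1, WT AC 2 or WT AC 3 (0.0523 to 0.081). The part of animal sex in the results was not tested.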

How the data were processed

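Estimated counts, FPKM and TPM per gene were deposited by the authors for 12 libraries; RSEM and the builds mm10 and GRCm38.p6 are named per the submitters' processing notes. The aligner, the read filters and the strand setting are not given in the sources used here. Libraries were made from total RNA for the BGISEQ-500, per the labels' protocols. The 8 numeric columns that belong to no library were not used.

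Deposited estimated counts were rounded to whole numbers; edgeR 4.0.16 (R 4.3.3) gave the main test (quasi-likelihood, robust, TMM scaling, all 4 groups in 1 fit). The filter filterByExpr with a count minimum of 10 left 12275 genes and removed 4453. A gene is called at a Benjamini-Hochberg adjusted p under 0.05 over these 12275 genes, and SE is the fold change divided by the square root of F. CPM use TMM-scaled library sizes and serve to compare libraries within a gene; the authors' FPKM serve to compare genes. With 3 libraries against 3, an exact permutation test cannot go below 0.1, so none is given. The fit was tested on simulated data.

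Members and gene lists were chosen with earlier results of these data known. Named genes are, per comparison and class, up to 4 called in each direction, the 3 highest by FPKM, and those called in the difference of FAC effects; per pathway list, up to 3 called. Other members are named to account for the set. Cyp1a1, Cyp3a13, Srxn1, Txnrd1, Nr1i2, the cell type markers and the sex-chromosome genes were named after their values were seen. Alternatives were median-of-ratios scaling, no filter, DESeq2 1.42.0, limma 3.58.1 on log2(FPKM + 1), log2(FPKM + 0.1) and log2(TPM + 1), fits of only the compared groups, no trend, a replicate block and leaving out libraries. Promoters are RefSeq windows of GRCm38.p6, of which 49 members have 1 or more, aligned with biopython 1.88. Shared sequence is the share of 50-base stretches of a gene's transcripts found in other genes.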

Additional observations from a re-analysis of the deposited data

Results flagged for a closer look

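For 7 genes the log2 effect of FAC in KO differed from that in WT by edgeR's test of the difference (KO minus WT). Of the members, Ugt2b36 had a difference of 0.83 and Ugt3a1 of -0.82. Of the pathway genes, Hmox1, the inducible heme oxygenase, had a difference of 1.09, Cyp4a10 of 0.84, Cyp1a2 of 0.49, Slc26a1 of -0.90 and Gclc of -0.66. Hmox1 averaged 2335 CPM in KO FAC and 670 CPM in KO AC, against 1225 CPM in WT FAC and 749 CPM in WT AC. The calls of Ugt3a1 and Cyp4a10 were kept without each single library in turn. The others were lost without some: adjusted p 0.0653 to 0.0992 for Ugt2b36 (8 libraries), 0.0528 to 0.0751 for Cyp1a2 (7), 0.0662 to 0.0874 for Gclc (8), 0.056 to 0.103 for Hmox1 (9) and 0.0503 to 0.112 for Slc26a1 (10).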

How the results depend on the processing

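Counts of members called, without each library in turn, were 30 to 37 for KO against WT under FAC and 24 to 30 under AC, 18 to 28 for FAC against AC in KO and 15 to 18 in WT, and 1 to 6 for the difference of FAC effects. On log2(TPM + 1), FAC in KO called 16 of 47 members, against 4670 of all 12275 genes. The difference called 1 member with no trend, 4 with DESeq2, 4 on log2(FPKM + 1), 11 when KO AC 1 and KO FAC 4 were left out, and 5 when KO AC 1 and KO FAC 6 were. Over all genes it called 387, against 678 with DESeq2, 584 on log2(FPKM + 1), 1918 and 546 without those pairs, and 95 to 643 without single libraries. FAC called 2199 genes in KO and 3345 in WT when only the compared groups were fitted, against 3633 and 2117 in the fit of all groups; without single libraries they were 2371 to 4095 and 1250 to 2503. The cause was not tested.

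For KO and WT libraries that share a number, correlations of deviations from the group means were -0.142 to 0.208. With 3 libraries per group, these values cannot show whether such libraries were paired. With the number as a replicate block, 34 members were called in KO against WT under FAC, 29 under AC and 1 in the difference (84 genes); Ugt2b34 was then called lower in KO under FAC (-0.265, adjusted p = 0.0184). FAC and AC libraries share no numbers.

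Values that changed sign were not called as reported, although Mgst1 (0.177 for KO under FAC and 0.21 for FAC in KO without KO AC 1) was called in other fits. On log2(TPM + 1), Mgst1 was -0.059 for FAC in KO and -0.018 for KO under FAC, and Gstp1 -0.047 for FAC in WT and -0.007 for KO under AC. On log2(FPKM + 1), log2(FPKM + 0.1) and log2(TPM + 1), Sult1a1 for FAC in WT was -0.041, -0.179 and -0.101, Sult1e1 for KO under AC -0.075, -0.083 and -0.12, and Ugt2b5 for KO under FAC -0.072, -0.073 and -0.142. Without 1 library, or without KO AC 1 together with KO FAC 4 or 6, Sult1a1 ranged from -0.349 to 0.263, Sult1d1 for KO under AC from -0.028 to 0.288, Sult1e1 from -0.086 to 0.209, Ugt2b34 for KO under AC from -0.126 to 0.011, Ugt2b5 from -0.032 to 0.21 and the Ugt2b sum with FAC in KO from -0.316 to 0.05. The difference then ranged from -0.104 to 0.09 for Mgst1, from -0.37 to 0.007 for Ugt2b34 and from -0.096 to 0.27 for the Ugt2b sum. When KO AC 1 and KO FAC 4 were left out, values were -0.027 for Sult1d1, -0.056 for Sult1e1 and 0.086 for the Mgst1 difference. Leaving out KO AC 1 together with KO FAC 6 gave -0.028 for Sult1d1, -0.057 for Sult1e1 and -0.019 for Ugt2b5.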
